A study of Homo sapiens with 18 samples.

Results

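The complement system is a cascade of plasma and membrane proteins that tags cells for removal. C1r and C1s, the serine proteases of the C1 complex, start the classical pathway, and C1 inhibitor, encoded by SERPING1, blocks them. All routes meet at C3, whose activated fragment C3b binds to surfaces and, joined by factor B (CFB), forms the convertase of the alternative pathway. Cells protect themselves with membrane regulators: CD55 speeds the decay of convertases, CD46 is a cofactor for the cleavage of C3b and C4b by factor I (CFI), and CD59 blocks assembly of the membrane attack complex. The liver makes most plasma complement, but many other cells, tumour cells included, make some components, and nucleated cells commonly carry the membrane regulators.

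The 9 genes C3, CFB, CFI, C1R, C1S, SERPING1, CD46, CD55 and CD59 were followed here, of 58721 genes in the count table. They were chosen by name. Which measured values led to that choice, and any threshold, are not stated, but results of the same libraries were known when it was made, so the differences below describe size against the spread between libraries and are not independent evidence of any direction. All 9 were among the 21060 genes that passed the filter on low counts, including 3 (CFB, C1S and SERPING1) that never reached a CPM (counts scaled to the library total) of 1 in any library.

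RNA was sequenced from A375, an established human melanoma line bought from ATCC and grown in DMEM with serum. There were 6 groups of 3 libraries. In the first 2, cells with a knockout of TADA2B, a subunit of the SAGA histone acetyltransferase complex, made by guide 2 or by guide 1, also overexpressed SOX10, which drives the programme of melanocytes and other neural crest derivatives. Knockout cells of guide 2 and of guide 1 without added SOX10 formed a further pair, followed by cells with a guide against GFP that overexpressed SOX10 (control with SOX10) and cells with the GFP guide alone (control), which the labels call wild type. The study compared how loss of TADA2B changed the transcriptome and what added SOX10 did on each background. The sources used here do not give the guide sequences, the SOX10 construct or whether the lines are clones or pools.

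Libraries held 58573910 to 79874237 counts, and 3 counts corresponded to 0.0359 to 0.0493 CPM depending on the library. The targeted gene, TADA2B, averaged 28.8 ± 1.37 CPM with guide 2 and 26.0 ± 0.402 CPM with guide 1, against 32.5 CPM in control (SD, n = 3 each), a log2 fold change of -0.25 ± 0.04 (SE) over both guides. Gene-wide counts do not show whether the protein was lost. SOX10 itself averaged 246 CPM (guide 2 with SOX10), 291 CPM (guide 1 with SOX10), 43.4 CPM (guide 2), 83.6 CPM (guide 1), 452 CPM (control with SOX10) and 354 CPM (control). The construct thus came with a 4.44-fold higher SOX10 level in knockout cells and a 1.28-fold higher level in control cells. Mitochondrial genes took 0.996 to 1.19% of counts with guide 2 and 1.10 to 1.16% with guide 1, against 0.732 to 0.996% in control. The labels do not say whether libraries came from separate cultures, so p-values measure only how these samples vary, and that variation may be technical.

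RefSeq promoter entries (GRCh38.p14) were matched for 6 of the 9 genes and not for C3, C1S or SERPING1. The stretches printed are the parts free of annotated exons for CFI and C1R, the 2 genes that were highest in control cells with SOX10, and for CD46, the gene that varied least. They are given 5′ to 3′ on the strand of the gene, CFI as chr4:109802180-109802249 (minus), C1R as chr12:7092608-7092695 (minus) and CD46 as chr1:207751788-207752037 (plus).
CFI: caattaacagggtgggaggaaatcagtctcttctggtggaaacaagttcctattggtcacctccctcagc
C1R: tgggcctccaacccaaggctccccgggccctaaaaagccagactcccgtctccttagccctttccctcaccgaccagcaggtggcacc
CD46: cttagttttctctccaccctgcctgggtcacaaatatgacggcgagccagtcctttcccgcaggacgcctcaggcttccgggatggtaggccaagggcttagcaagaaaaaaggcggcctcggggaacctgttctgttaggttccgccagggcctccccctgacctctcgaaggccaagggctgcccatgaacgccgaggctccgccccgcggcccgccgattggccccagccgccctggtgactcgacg

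The letter patterns searched on both strands of the 250 bases before each start were GAAANNGAA (interferon-stimulated response element core), TTCNNNGAA (STAT), GGNNTTTCC (NF-kB), TGANTCA (AP-1), ACAAAG (SOX) and CACGTG (E-box). None was found before CD46 or CD55, and none before the first start of C1R. The SOX pattern occurred once before the RefSeq start of CFI, 97 bases upstream of it, within chr4:109802080-109802107, and is shown in capitals below. This site lies outside the stretch printed above, in the 180 bases of the window that are annotated as exon. The SOX pattern also occurred 2 times before a further annotated start of CD59, and other patterns matched before CFB, CD59 and the second start of C1R.
CFI site: agttcaaaagtACAAAGctctttaggag
The same 6 letters were present in 13.7% of 35116 promoter windows of the same length, so the match is a description of the window only. Of the other 5 patterns, each was held by 5.48 to 6.88% of windows.

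Knockout of TADA2B went with higher mRNA of C3, of CD55 and, at low levels, of C1S and SERPING1, each by 3.36- to 4.13-fold. The other membrane regulators, CD46 and CD59, were within 1.07-fold of control over the mean of both guides, and C1R was slightly lower. In all, 5 of 9 genes were called higher and 1 lower by edgeR's quasi-likelihood test at a Benjamini-Hochberg adjusted p under 0.05. Over all genes tested, 28.6% were called higher and 29.5% lower in the same comparison, and since the list was drawn up with it in view, nothing is read from the share. RNA was taken from bulk cultures, so more cells making a transcript and more transcript per cell cannot be told apart here.

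C3, the central component, stood at 56.1, 54.0 and 54.0 CPM with guide 2 and at 72.4, 68.6 and 65.9 CPM with guide 1, against 17.3, 16.1 and 16.1 CPM in control. Every knockout library was above every control library, and the guides themselves did not overlap. The log2 fold change over both guides was 1.89 ± 0.05 (SE, adjusted p = 4.97e-31). CD55, the decay-accelerating factor, stood at 408, 435 and 403 CPM with guide 2 and 459, 463 and 449 CPM with guide 1, against 125, 128 and 137 CPM in control. Its groups did not overlap either, and the log2 fold change was 1.75 ± 0.03 (SE, adjusted p = 8.04e-38).

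Read per kb of exon, which allows levels of different genes to be set side by side, the surface regulators changed order. With guide 2, CD55 had 70.3 CPM per kb, CD59 30.5 and CD46 24.8, and with guide 1 CD55 had 77.4, CD59 34.0 and CD46 25.9. In control cells CD59 led with 31.6 CPM per kb, followed by CD46 with 23.7 and CD55 with 21.9. CD55 was thus the most abundant of the 9 transcripts per length in knockout cells and the third in control cells. C3 ranked 4 of 9 in all of these groups, at 6.57 CPM per kb with guide 2 and 8.28 with guide 1, against 1.98 in control.

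The classical pathway genes divided. C1S, the protease that cleaves C4 and C2, had 0.958, 0.973 and 0.637 CPM with guide 2 and 0.930, 0.928 and 0.891 CPM with guide 1, against 0.283, 0.237 and 0.184 CPM in control, which is 12 to 19 reads per control library. The knockout libraries all lay above control, with a log2 fold change of 1.90 ± 0.27 (SE, adjusted p = 5.67e-08). SERPING1, the inhibitor of both C1 proteases, had 0.730, 0.826 and 0.481 CPM with guide 2 and 0.472, 0.388 and 0.540 CPM with guide 1, against 0.179, 0.178 and 0.0461 CPM in control. It did not overlap either (log2 2.04 ± 0.39, SE, adjusted p = 1.68e-05), but the lowest control library held only 3 reads, so the size of the fold is uncertain.

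C1R, the protease that activates C1s, had 3.89, 3.64 and 3.56 CPM with guide 2 and 3.68, 3.71 and 4.40 CPM with guide 1, against 4.92, 4.31 and 4.75 CPM in control. The highest guide 1 library lay inside the control range, and the log2 fold change was -0.29 ± 0.09 (SE, adjusted p = 0.00629). By guide, C1R passed with guide 2 (log2 -0.33, adjusted p = 0.00683) and not with guide 1 (log2 -0.24, adjusted p = 0.0508). With scaling by library size alone the value was -0.13 (adjusted p = 0.215) and the call was lost. C1R and C1S lie next to each other on chromosome 12, 9166 bases apart and on opposite strands. Per kb of exon, C1R exceeded C1S by a median of 4.46 times with guide 2 and 4.39 times with guide 1, against 19.97 times in control. Of C1R's exon bases, 672 are shared with C1RL, and of C1S's, 229 with EMG1, a gene with 6888 to 12122 counts per library. How reads in shared bases were counted is not stated in the labels.

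Among the remaining genes, changes were small or the reads few. CD46 averaged 216 ± 4.11 CPM with guide 2 and 225 ± 3.98 CPM with guide 1, against 206 ± 2.92 CPM in control (SD, n = 3 each), a log2 fold change of 0.10 ± 0.02 (SE, adjusted p = 0.000667). CD59 averaged 316 ± 11.8 CPM with guide 2 and 352 ± 7.57 CPM with guide 1, against 328 ± 14.1 CPM in control, and did not pass over both guides (log2 0.03, 95% interval -0.03 to 0.08). By guide, CD59 did not pass with guide 2 (log2 -0.05, adjusted p = 0.153) and was called higher with guide 1 (log2 0.10, adjusted p = 0.00322). CFI averaged 5.27 ± 0.710 CPM with guide 2 and 4.87 ± 0.401 CPM with guide 1, against 4.50 ± 0.111 CPM in control, and did not pass over both guides (log2 0.17, adjusted p = 0.0791), though it was called higher with guide 2 (log2 0.23, adjusted p = 0.0420) and not with guide 1 (log2 0.12, adjusted p = 0.331). The guide 2 call was lost when any 1 of 5 libraries was left out. Over both guides, CFI passed without the first library of guide 1 (adjusted p = 0.0419) or the third of guide 2 (adjusted p = 0.0170). Changes of this size rest on the scaling, since scaling by library size alone moved the median log2 fold change of all genes up by 0.16 and split the calls into 9112 higher and 3545 lower, in place of 6025 higher and 6205 lower. Under it CD59 (0.18) and CFI (0.33) were called higher.

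CFB, the alternative pathway protease, was barely detected, with 9 to 37 reads per library with guide 2 and 11 to 19 with guide 1, against 6 to 24 in control. The ranges overlapped, and the log2 fold change of 0.43 had a 95% interval of -0.47 to 1.32. Its exons share 2249 bases with a readthrough gene, which had 0 counts in every library, and 23 with C2. How reads in shared bases were counted is not stated, so the 0 counts do not show that CFB was counted in full.

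**Figure D1:**
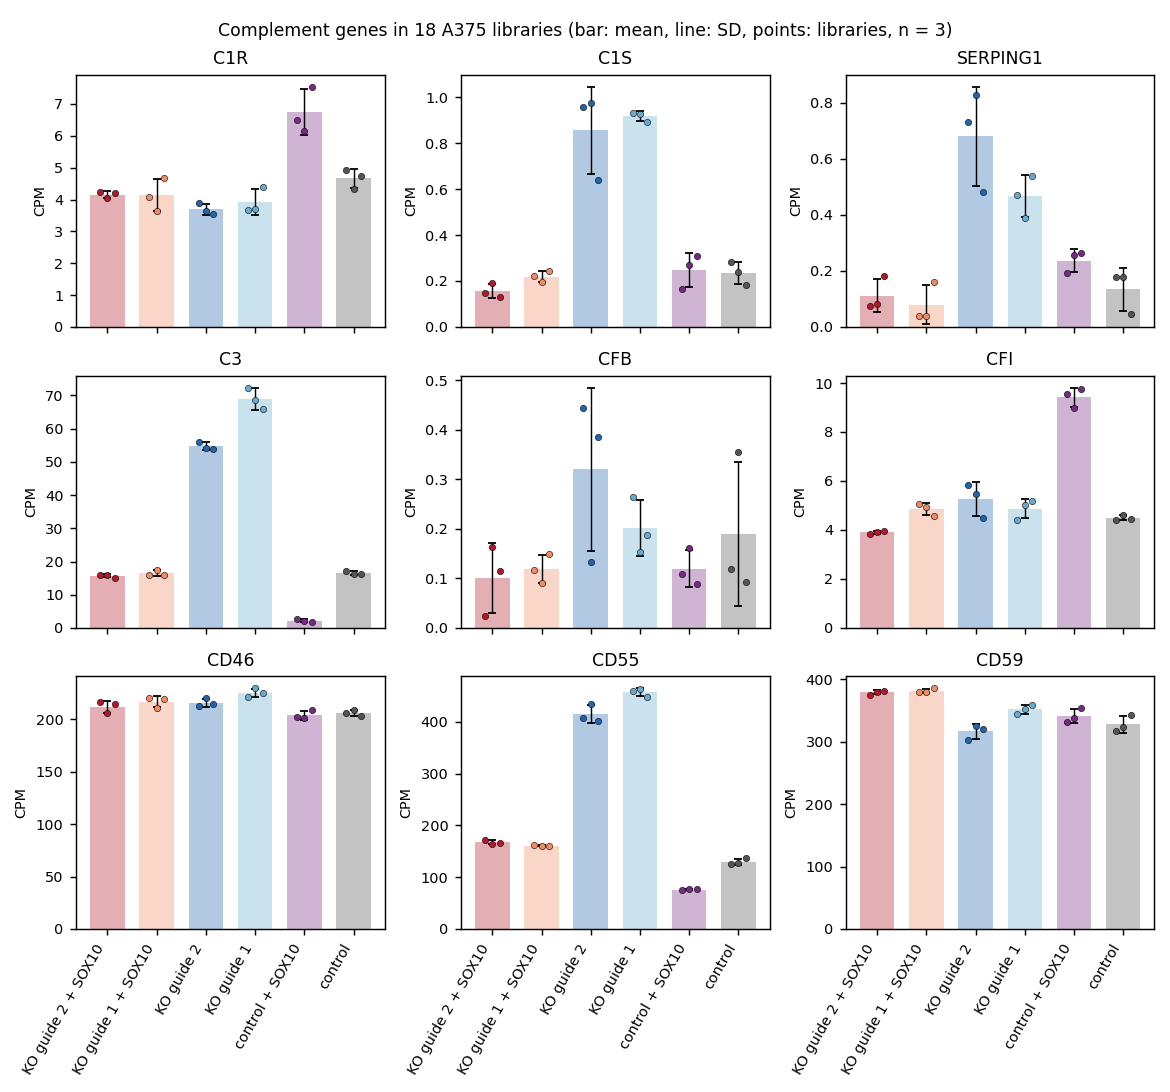
Level of each of the 9 genes in CPM (vertical axes, each from 0) in the 6 groups, with bars at the mean, lines for the SD and points for the 3 libraries of a group. C3, CD55, C1S and SERPING1 peak in the knockout groups without SOX10, CFI and C1R in control cells with SOX10, and CD46 and CD59 stay nearly level.

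The estimates of both guides against control had the same sign for 8 of the 9 genes and opposite signs for CD59. Set directly against each other, guide 2 was lower than guide 1 for C3 (log2 -0.33 ± 0.05, SE, adjusted p = 1.25e-06), CD55 (-0.14 ± 0.03, adjusted p = 0.000998) and CD59 (-0.15 ± 0.03, adjusted p = 0.000243). These 3 of 9 genes were called lower and 0 higher, with 0 higher also at an unadjusted p under 0.05 and by DESeq2. Over all genes, 2.65% were called higher and 6.09% lower between the guides. C3 was thus 3.31-fold above control with guide 2 and 4.18-fold with guide 1, and SOX10 was also lower with guide 2. For C1S the 95% interval of the guide difference ran from -0.60 to 0.39 on the log2 scale, and for SERPING1 from -0.18 to 1.24.

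In control cells, added SOX10 went with lower C3 and CD55 and with higher CFI and C1R. C3 fell to 2.62, 2.11 and 1.93 CPM in control cells with SOX10, against 17.3, 16.1 and 16.1 CPM in control. That is a 7.42-fold lower level, with a log2 fold change of -2.89 ± 0.08 (SE, adjusted p = 7.76e-30). CD55 had 75.3, 76.6 and 76.6 CPM in control cells with SOX10, against 125, 128 and 137 CPM in control, a log2 fold change of -0.77 ± 0.03 (SE, adjusted p = 6.79e-23). Neither gene overlapped between the groups.

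CFI, the protease that inactivates C3b, rose to 9.55, 8.98 and 9.74 CPM in control cells with SOX10, against 4.43, 4.63 and 4.44 CPM in control. Its log2 fold change was 1.07 ± 0.09 (SE, adjusted p = 9.52e-13). C1R rose to 6.51, 6.15 and 7.54 CPM, against 4.92, 4.31 and 4.75 CPM in control, a log2 fold change of 0.53 ± 0.10 (SE, adjusted p = 4.47e-05). In this comparison 2 of 9 genes were called higher and 2 lower, beside 17.3% of all genes called higher and 17.2% lower. The control cells with SOX10 held the highest CFI and C1R levels of the study, above every other group without overlap. CFI shares 1562 exon bases with an overlapping gene that had 0 counts in every library. As the counting of shared bases is not stated, this does not show that CFI was counted in full.

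For the low genes the data allow a wide range. SERPING1 had 14, 19 and 18 reads in control cells with SOX10 and 12, 12 and 3 in control, with a 95% interval of -0.14 to 1.75 on the log2 scale. C1S had an interval of -0.62 to 0.75 and CFB one of -1.78 to 0.47. CD46 (log2 -0.02, interval -0.07 to 0.04) and CD59 (log2 0.06, interval -0.0020 to 0.12) did not pass and had narrow intervals, although CD59 passed without the third control library (0.09, adjusted p = 0.0211).

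In knockout cells, added SOX10 went with lower levels of every gene that was over 3-fold above control in the knockout, and of CFB and CFI. C3 had 16.0, 16.0 and 15.2 CPM in guide 2 cells with SOX10 and 16.0, 17.6 and 16.0 CPM in guide 1 cells with SOX10, against the 54.0 to 72.4 CPM of knockout cells without it. The log2 fold change was -1.93 ± 0.04 (SE, adjusted p = 1.97e-35). CD55 had 172, 164 and 167 CPM in guide 2 cells with SOX10 and 162, 160 and 160 CPM in guide 1 cells with SOX10, against 403 to 463 CPM without it (log2 -1.41 ± 0.02, SE, adjusted p = 1.11e-38). Both genes were lower in all 6 libraries with SOX10 than in any of the 6 without it.

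C1S fell to 8 to 14 reads in guide 2 cells with SOX10 and 15 to 18 in guide 1 cells with SOX10, against 53 to 80 reads with guide 2 alone and 67 to 71 with guide 1 alone. Its log2 fold change was -2.24 ± 0.21 (SE, adjusted p = 3.25e-12). SERPING1 fell to 6 to 11 reads in guide 2 cells with SOX10 and 3 to 12 in guide 1 cells with SOX10, against 40 to 61 with guide 2 alone and 28 to 43 with guide 1 alone (log2 -2.58 ± 0.31, SE, adjusted p = 2.75e-09). With these low counts, both genes still separated the libraries with SOX10 from those without it.

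CFB (log2 -1.23 ± 0.38, SE, adjusted p = 0.00544) and CFI (log2 -0.22 ± 0.07, SE, adjusted p = 0.00535) were also called lower, with overlapping libraries. CFB passed in guide 2 cells (log2 -1.70, adjusted p = 0.00710) and not in guide 1 cells (log2 -0.76, adjusted p = 0.279), and the guide 2 call was lost without the first library of guide 2 (adjusted p = 0.0564) or the first of guide 2 with SOX10 (adjusted p = 0.0819). For CFI the guides differed in size: the SOX10 change was -0.43 ± 0.10 in guide 2 cells and -0.0039 ± 0.09 in guide 1 cells, and the cells with SOX10 were lower with guide 2 than with guide 1 (log2 -0.32, adjusted p = 0.0227). That last call was lost when any 1 of 5 libraries was left out, with adjusted p up to 0.0850. CD59 was called higher, with 375.2, 380 and 381 CPM in guide 2 cells with SOX10 and 379, 379 and 385 CPM in guide 1 cells with SOX10, against 303 to 359 CPM without it (log2 0.19 ± 0.02, SE, adjusted p = 3.74e-10). In all, 1 of 9 genes was called higher and 6 lower with SOX10 in knockout cells, beside 28.1% of all genes called higher and 28.1% lower. Between the guides in the presence of SOX10, CFI was the 1 gene of 9 called lower and 0 were called higher, 0 also at an unadjusted p under 0.05, beside 5.05% of all genes called higher and 7.01% lower.

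**Figure D2:**
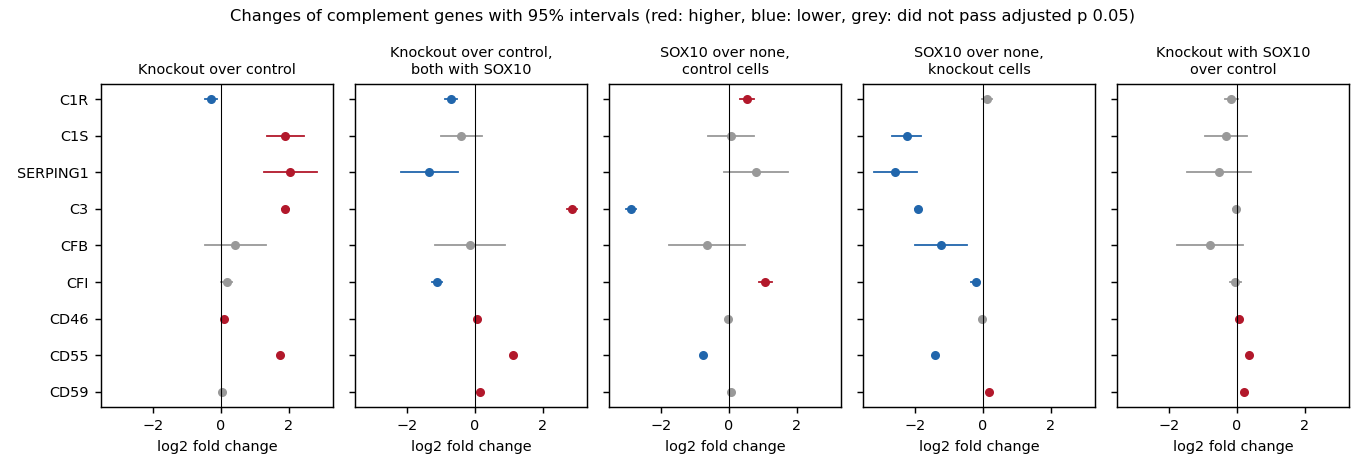
Log2 fold change (horizontal axes) of the 9 genes in 5 comparisons, points with 95% intervals from the edgeR fit, red where called higher, blue where called lower and grey where the adjusted p did not pass 0.05. C3 and CD55 lie right of 0 in both knockout panels and left of 0 in both panels of added SOX10, while CFI and C1R are right of 0 with SOX10 in control cells.

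The change with SOX10 differed between knockout and control cells for most of the genes, tested as the SOX10 effect in knockout cells minus that in control cells. C1S (difference -2.31 ± 0.40, SE, adjusted p = 1.29e-05) and SERPING1 (-3.39 ± 0.57, SE, adjusted p = 6.19e-06) were lower with SOX10 in knockout cells and did not pass in control cells. CD55 was lower on both backgrounds and more so in knockout cells (-0.64 ± 0.04, SE, adjusted p = 2.15e-17). C3 was lower on both and less so, on the log2 scale, in knockout cells (0.96 ± 0.09, SE, adjusted p = 6.64e-12).

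CFI (-1.28 ± 0.11, SE, adjusted p = 3.30e-12) and C1R (-0.41 ± 0.13, SE, adjusted p = 0.00972) were higher with SOX10 in control cells. In knockout cells with SOX10, CFI was lower and C1R did not pass. For C1R the difference did not pass without the third library of control with SOX10 (-0.32, adjusted p = 0.0631). CD59 had a difference of 0.13 ± 0.04 (SE, adjusted p = 0.00485), which missed the threshold without the third control library (0.09, adjusted p = 0.0506). Altogether 2 of 9 differences were called higher and 5 lower, beside 18.1% and 15.1% of all genes. The SOX10 level itself moved by different amounts on the 2 backgrounds, by 4.44-fold in knockout cells and 1.28-fold in control cells, and its part in these differences was not tested.

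Knockout cells with SOX10 came close to control cells in most of the genes. C3 averaged 15.7 ± 0.492 CPM with guide 2 and SOX10 and 16.5 ± 0.891 CPM with guide 1 and SOX10, against 16.5 ± 0.672 CPM in control, and its difference had a 95% interval of -0.13 to 0.06 on the log2 scale. CD55 remained higher, at 168 ± 4.00 CPM with guide 2 and SOX10 and 161 ± 1.21 CPM with guide 1 and SOX10, against 130 ± 6.31 CPM in control (log2 0.34 ± 0.03, SE, adjusted p = 2.90e-14). CD59 (log2 0.21 ± 0.03, adjusted p = 2.52e-09) and CD46 (log2 0.06 ± 0.02, adjusted p = 0.0452) were also called higher. The CD46 call was lost when any 1 of 6 libraries was left out, with adjusted p up to 0.196.

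In this comparison 3 of 9 genes were called higher and 0 lower, 0 also at an unadjusted p under 0.05 and by DESeq2, beside 30.0% of all genes called higher and 27.9% lower. C3, CFB, CFI, C1R, C1S and SERPING1 did not pass, and for the low genes the intervals were wide, as for C1S (-0.96 to 0.28) and SERPING1 (-1.48 to 0.40). With library-size scaling C3 took the opposite sign (0.11, adjusted p = 0.0486), a scaling that moved the median of all genes by 0.15 in this comparison.

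Set against control cells that also overexpressed SOX10, knockout cells with SOX10 were higher for C3 (log2 2.86 ± 0.07, SE, adjusted p = 1.17e-31) and CD55 (log2 1.11 ± 0.03, SE, adjusted p = 1.19e-30). CD46 (0.07) and CD59 (0.16) were called higher by small amounts. Lower were CFI (log2 -1.11 ± 0.08, SE, adjusted p = 3.78e-16), C1R (-0.70 ± 0.09, SE, adjusted p = 3.94e-09) and SERPING1 (-1.34 ± 0.41, SE, adjusted p = 0.00525). These are 4 of 9 genes higher and 3 lower, beside 28.2% of all genes called higher and 26.7% lower. SERPING1 was therefore higher in knockout cells than in control cells without added SOX10, and lower with it.

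Levels of C3 and CD55 ran against those of SOX10 across the groups. The lowest C3 and CD55 and the highest SOX10 were in control cells with SOX10, and the highest C3 and CD55 were in the knockout cells without it, where SOX10 was lowest. The order was not exact: guide 2 cells had less SOX10 than guide 1 cells and also less C3 and CD55. Guide 2 and guide 1 cells with SOX10 had less SOX10 than control (246 and 291 against 354 CPM). Their C3 was nonetheless close to that of control (15.7 and 16.5 against 16.5 CPM). The libraries fall into separate clusters by group, so no correlation is given.

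**Figure D3:**
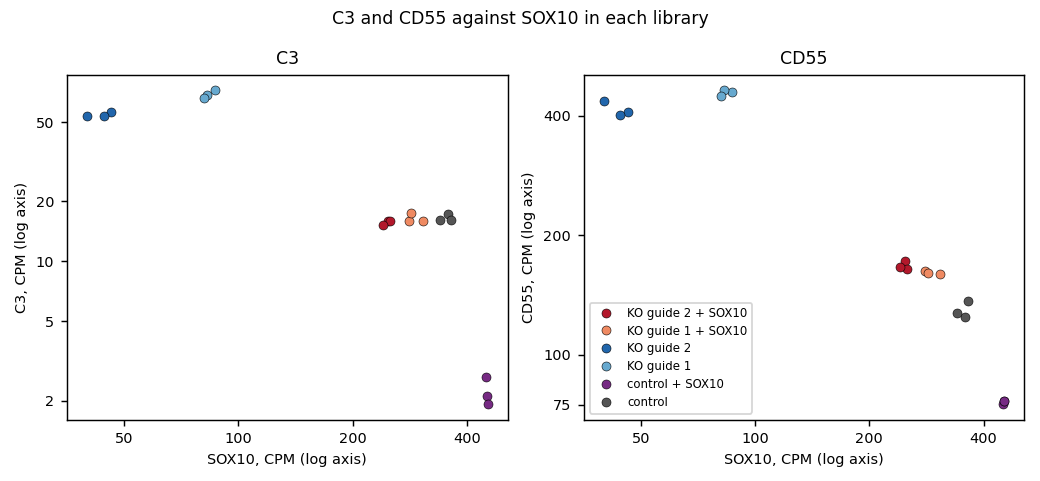
C3 and CD55 (vertical axes, CPM, log scale) against SOX10 (horizontal axes, CPM, log scale), 1 point for each of 18 libraries coloured by group. The control libraries with SOX10 lie at the bottom right, the knockout libraries at the top left, and knockout libraries with SOX10 lie beside the control libraries.

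Genes whose pattern was most like each of the 9 were found by Pearson correlation of log2 CPM over the 18 libraries, which share their groups, so the values are descriptions. C3 was most like ITGB4 (r = 0.996), MYPN (0.994) and TRIM47 (0.991), and CD55 most like RGS4 (0.995), MAPKAPK3 (0.994) and CCBE1 (0.994). For CFI it was ITPR1 (0.957), for C1R ME1 (0.944), for C1S IGFN1 (0.967), for SERPING1 WDR45 (0.951), for CD59 TMED4 (0.935), for CD46 PON2 (0.893) and for CFB PPP2R2D (0.828). Among the 9 themselves, C3 and CD55 were closest (0.955), then C1S and SERPING1 (0.907), while C3 and C1R ran in opposite directions (-0.876).

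A further 51 genes of the complement system were listed by role, with earlier results of the data known, and 28 of them passed the filter on low counts. The filter passes a gene through the groups where it is high, so the counts describe the tested genes and are no support for a direction. In knockout cells 19 of the 28 were called higher and 5 lower, with a median log2 fold change of 1.46 against -0.0090 over all genes tested, of which 28.6% were called higher and 29.5% lower. Of the 19, 12 had under 0.5 CPM in control. Among the 12 listed genes with a mean of at least 1 CPM over all libraries, 8 were called higher and 3 lower. That mean includes the knockout groups, so this count is no support for a direction either. ITGB2 (0.385 CPM in control), ITGAX (0.561 CPM) and CFHR3 (0.362 CPM) reached it through those groups.

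By role, 10 of 11 tested regulators were called higher in the knockout, 4 of 6 receptors, 4 of 7 genes of recognition and the classical and lectin pathways, 1 of 2 of the alternative pathway and 0 of 2 terminal components. Of all genes tested, 28.6% were called higher and 29.5% lower. C5 and C7, the terminal components tested, were both called lower over the mean of the guides, C7 through guide 2 alone. CLU, which encodes clusterin, an inhibitor of the membrane attack complex, averaged 34.4 ± 0.853 CPM with guide 2 and 29.6 ± 1.90 CPM with guide 1, against 4.87 ± 0.00945 CPM in control (log2 2.71 ± 0.06, SE, adjusted p = 1.74e-34). It was higher in every knockout library than in any control library.

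The receptor for C3a, C3AR1, averaged 5.31 ± 0.818 CPM with guide 2 and 4.36 ± 0.482 CPM with guide 1, against 1.33 ± 0.253 CPM in control (log2 1.86 ± 0.12, SE, adjusted p = 3.04e-17). ITGB2 (log2 2.96) and ITGAX (log2 2.60), the chains of complement receptor 4, were higher as well, as was CFHR3 (log2 2.33). The CFHR genes are close copies of each other, as are C4A and C4B, so reads may be split among them. CPN1, the catalytic chain of carboxypeptidase N, which inactivates C3a and C5a, was lower (log2 -1.49 ± 0.10, SE, adjusted p = 4.00e-17). The terminal component C7 was lower with guide 2 (log2 -2.65, adjusted p = 4.09e-06) and did not pass with guide 1 (log2 -0.03, adjusted p = 0.941), and the guides differed (adjusted p = 4.57e-05). C7 had 1 to 4 reads per library with guide 2, against 13 to 19 in control, so the size of this fold is uncertain. Its mean of 1.02 CPM over all libraries was reached through the knockout groups with SOX10.

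Several initiating components were not seen. The C1q chains C1QA and C1QB had 0 counts in all 18 libraries and C1QC had 1 in total. Of the membrane attack complex, C8A and C8B had 0 counts and C9 had 3 in total.

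With SOX10 in knockout cells, 8 of the 28 genes were called higher and 13 lower, with a median log2 fold change of -0.15 against 0.00065 over all genes tested, of which 28.1% were called higher and 28.1% lower. ITGAX was lower (log2 -2.33), and ITGB2 rose further (log2 0.90). CLU, at 37.5 ± 1.87 CPM in guide 2 cells with SOX10 and 27.2 ± 0.4998 CPM in guide 1 cells with SOX10, did not pass over both guides. It was slightly higher with SOX10 in guide 2 cells (log2 0.13, adjusted p = 0.0266) and slightly lower in guide 1 cells (log2 -0.12, adjusted p = 0.0378).

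C7 rose most with SOX10 in knockout cells, to 1.99 ± 0.219 CPM in guide 2 cells with SOX10 and 2.93 ± 0.336 CPM in guide 1 cells with SOX10, against 0.0397 ± 0.0246 CPM with guide 2 and 0.241 ± 0.106 CPM with guide 1 (log2 4.60 ± 0.20, SE, adjusted p = 5.16e-23). The guide 2 libraries without SOX10 held 1 to 4 C7 reads each, so the size of that rise is uncertain. CPN1 rose too (log2 1.77). In control cells with SOX10, 5 of the 28 were called higher and 5 lower, beside 17.3% and 17.2% of all genes. Higher were CPN1 (log2 1.47), C7 (1.35) and C3AR1 (0.96) among others, and COLEC12, a scavenger receptor of the collectin family, was lower (-1.93).

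**Figure D4:**
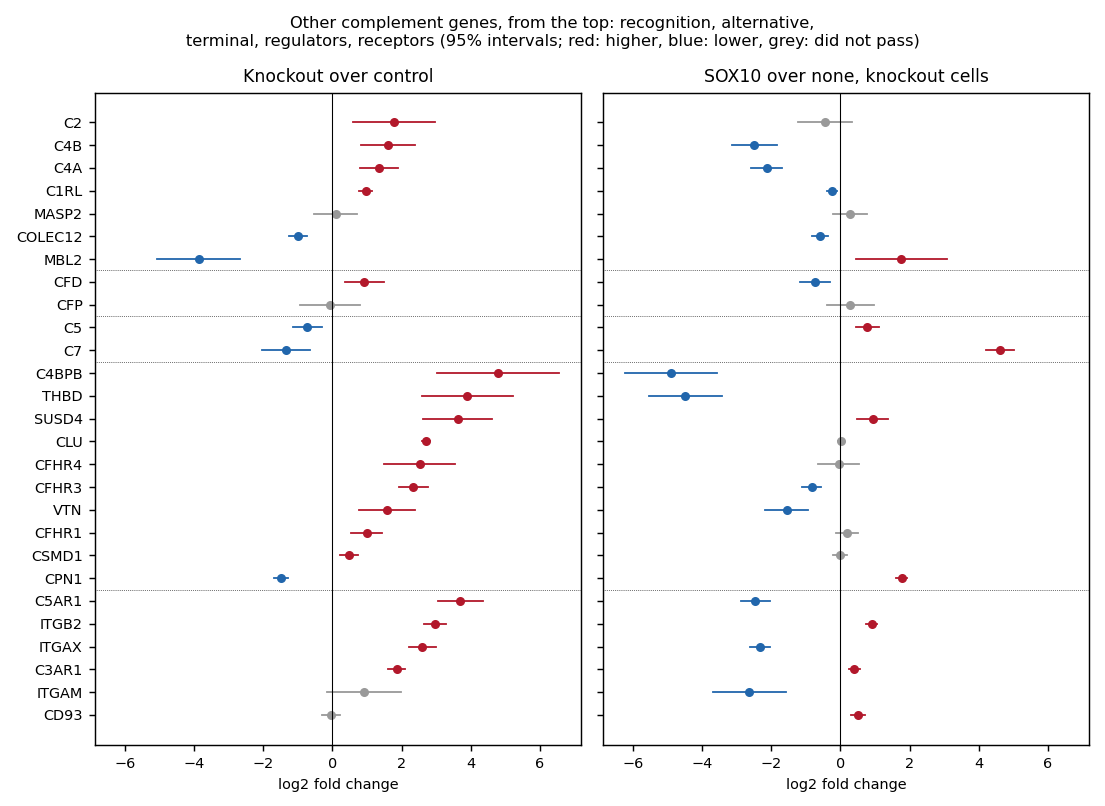
Log2 fold change (horizontal axes) with 95% intervals of all but 1 of the 28 other complement genes, ordered by role from top to bottom, for knockout over control and for added SOX10 in knockout cells, red where called higher, blue where called lower and grey where the adjusted p did not pass 0.05. Most regulators and receptors lie right of 0 in the knockout, where CLU has 2.71, and ITGAX lies left of 0 with SOX10.

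Markers of other cell types also differed between the groups. Of 10 fibroblast markers, 5 had over 1 CPM on average with guide 2 and 5 with guide 1, against 2 in control, and their summed level ran from 42.5 to 46.0 CPM with guide 2 and 36.5 to 40.7 CPM with guide 1, against 5.21 to 7.04 CPM in control. The summed level of 6 hepatocyte markers was 12.8 to 13.7 CPM with guide 2 and 12.5 to 13.5 CPM with guide 1. Control libraries had 2.45 to 3.52 CPM. In knockout cells nearly all of this was SERPINA1, while ALB had 0 or 1 counts in each library. TTR went the other way, its means being 0 (guide 2) and 0.0088 (guide 1), against 0.522 CPM in control. With SOX10 the fibroblast markers summed to 54.6 to 58.2 CPM in guide 2 cells and 48.4 to 49.2 CPM in guide 1 cells, against 13.4 to 14.6 CPM in control cells, with LUM alone at 43.3 CPM in guide 2 cells and 37.3 CPM in guide 1 cells. LUM, DCN and PDGFRA had higher means with SOX10 than without it in knockout cells of both guides. COL1A1, COL3A1, THY1, FAP, POSTN and MFAP5 had lower ones, and COL1A2 differed by guide. Without SOX10, COL1A2 and PDGFRA had lower means in the knockout than in control. The 8 leukocyte markers summed to 6.15 to 7.48 CPM with guide 2 and 9.37 to 9.99 CPM with guide 1, against 8.41 to 9.44 CPM in control, mostly LYZ, with PTPRC at 0 to 12 counts. With SOX10 they summed to 20.2 to 21.9 CPM in guide 2 cells and 18.4 to 19.6 CPM in guide 1 cells, against 5.40 to 6.28 CPM in control cells. LYZ made up most of this, at 20.8 CPM in guide 2 cells and 18.8 CPM in guide 1 cells with SOX10. CSF1R averaged 1.03 CPM with guide 2 and 0.939 CPM with guide 1, against 0.121 CPM in control, while CD14 was lower (0.0748 and 0.0638 against 0.296 CPM). CSF1R had only 0.173 CPM in guide 2 cells with SOX10 and 0.145 CPM in guide 1 cells with SOX10. CD68, at 0 to 7 counts per library, also had lower means with SOX10 in knockout cells. The 6 epithelial markers summed to 311 to 338 CPM with guide 2 and 296 to 311 CPM with guide 1. Control libraries had 176 to 177 CPM. Most of this was KRT18 and KRT8, while CDH1 had 0 to 3 counts. KRT14 went the other way, its means being 0.368 (guide 2) and 1.18 (guide 1), against 5.41 CPM in control. In knockout cells with SOX10, the 5 endothelial markers summed to 36.2 to 36.4 CPM (guide 2) and 29.8 to 31.7 CPM (guide 1), mostly KDR. Without SOX10 they summed to 2.30 to 2.69 CPM with guide 2 and 2.29 to 2.42 CPM with guide 1. Both lay below control (3.697 to 4.74 CPM), and control cells with SOX10 had 10.9 to 11.5 CPM. The lower sum without SOX10 came from KDR, whose means were 0.254 (guide 2) and 0.395 (guide 1), against 3.26 CPM in control. PECAM1, CDH5, VWF and TEK each had higher means than control in knockout cells of both guides. KDR, VWF and TEK had higher means with SOX10 in knockout cells of both guides, while PECAM1 and CDH5 had lower ones. CDH5 averaged 0.592 CPM (guide 2) and 0.336 CPM (guide 1) with SOX10, against 1.16 and 0.905 CPM without it. The part of these markers of other cell types in the complement results was not tested. The 8 melanocyte markers summed to 135 to 144 CPM with guide 2 and 171 to 178 CPM with guide 1, against 401 to 425 CPM in control, most of the difference being SOX10 itself. MITF averaged 92.1 CPM in guide 2 cells and 84.3 CPM in guide 1 cells, against 39.7 CPM in control. PMEL averaged 0.795 CPM in guide 2 cells and 0.869 CPM in guide 1 cells, against 0.412 CPM in control, and TYR had 0 to 4 counts per library. The remaining melanocyte markers had lower means in the knockout. S100B averaged 1.37 CPM in guide 2 cells and 2.94 CPM in guide 1 cells, against 14.2 CPM in control. In the same order, S100A1 had 0.982 and 1.41 against 4.34 CPM, DCT 0.0793 and 0.0566 against 1.01 CPM, and MLANA 0.907 and 0.791 against 1.16 CPM.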

How the data were processed

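The deposited data were raw counts of reads for each gene in 18 libraries, without normalization. Total RNA came from the RNeasy Plus kit and libraries from the KAPA Stranded mRNA-Seq kit, per the labels' protocols. HISAT2, HTSeq and hg38 are named in the submitters' processing notes. The sources used here do not give their versions, the annotation or the strand setting, so a gene cannot be told apart from an overlapping or antisense partner by its reads. Of 58721 identifiers, 58676 were found in GENCODE 29 and 58207 had a symbol.

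edgeR 4.0.16 in R 4.3.3 was used: filterByExpr kept 21060 genes, libraries were scaled by TMM, and 1 model of 6 group means was fitted to 18 libraries with robust quasi-likelihood (12 residual degrees of freedom, common biological coefficient of variation 4.02%). Adjusted p-values are two-sided, Benjamini-Hochberg over all genes tested. The test was checked on simulated data. CPM used effective library sizes, and floors cover counting error only. Within groups, chi-square values per degree of freedom between pairs ran from 3.54 to 11.8, and no pair looked like 1 library counted again. Guide 2 replicate 2 stood furthest from its group. Exon lengths are unions over GENCODE 29.

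The 9 members and the lists of other complement genes and cell markers were chosen with earlier results of these data known. Of the other complement genes, 1 is counted but not reported by itself here. Other complement genes were named where they passed the test with a mean of at least 1 CPM, by size of change. Genes of like pattern were the 3 with the highest Pearson r of log2(CPM + 0.5), among genes with a mean of at least 1 CPM. Alternatives were RLE and library-size scaling, DESeq2 1.42.0, no filter or a filter at 1 CPM, fits of the compared groups alone, a replicate block and leaving out each library.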

Additional observations from a re-analysis of the deposited data

Results flagged for a closer look

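The effect of added SOX10 differed between knockout and control cells in 7 of the 9 genes by the test of that difference itself (edgeR quasi-likelihood, adjusted over all genes). Among all genes tested, the difference was called higher for 18.1% and lower for 15.1%. On the log2 scale, the effect in knockout cells minus that in control cells was 0.96 for C3 (adjusted p = 6.64e-12) and 0.13 for CD59 (adjusted p = 0.00485). It was -1.28 for CFI (adjusted p = 3.30e-12), -0.41 for C1R (adjusted p = 0.00972), -2.31 for C1S (adjusted p = 1.29e-05), -3.39 for SERPING1 (adjusted p = 6.19e-06) and -0.64 for CD55 (adjusted p = 2.15e-17). The C1R call was lost without the third library of control with SOX10 (adjusted p = 0.0631). The CD59 call was lost without the third control library (adjusted p = 0.0506). SOX10 itself was 4.44-fold higher with the construct in knockout cells and 1.28-fold higher in control cells, and its part was not tested.

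The 2 guides also differed from each other. Without SOX10, guide 2 minus guide 1 was -0.33 for C3 (adjusted p = 1.25e-06), -0.14 for CD55 (adjusted p = 0.000998) and -0.15 for CD59 (adjusted p = 0.000243). With SOX10 it was -0.32 for CFI (adjusted p = 0.0227).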

How the results depend on the processing

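Of 1603 alternative values of the 9 genes' log2 fold changes, 1555 kept their direction and side of the threshold, 29 no longer passed, 17 newly passed and 2 changed sign, both under library-size scaling (CD59 with guide 2 against control 0.11, and C3 with knockout and SOX10 against control 0.11). That scaling also left 0 genes of the 9 lower in the knockout, in place of 1, and 1 other complement gene lower for knockout within SOX10-overexpressing cells, in place of 2; DESeq2 and no filter on low counts gave 1 there too. A filter at a mean of 1 CPM, which tests fewer genes, left of the other complement genes 8 higher and 3 lower in the knockout, 3 lower with SOX10 in control cells (3 also when only the compared groups were fitted), 5 higher and 5 lower with SOX10 in knockout cells, 1 lower in knockout with SOX10 against control, 1 lower for knockout within SOX10 and 5 lower in the interaction. Of the 9 genes it left 3 lower with SOX10 in knockout cells and 3 lower in the interaction. Leaving out 1 library gave 0 to 1 of the 9 lower in knockout with SOX10 against control (1 without guide 1 with SOX10 library 3), 1 to 2 higher in the interaction (1 without control library 3), and of the other complement genes 1 to 3 lower for knockout within SOX10 (1 without guide 1 with SOX10 library 2 or guide 2 with SOX10 library 3), 4 to 8 lower in the interaction (4 without control with SOX10 library 3) and 1 to 2 higher between guides (2 without guide 2 library 3). CFB with guide 2 against control passed without control library 2 (1.60, adjusted p = 0.0218). Replicate numbers paired the libraries only weakly: same-numbered deviations correlated at -0.05 to 0.16 over 45 pairs. Their mean r was 0.024, against -0.012 for different numbers, and 15 of 18 libraries were closest to their own number. With the replicate as a block, C1R with guide 1 against control passed (-0.25, adjusted p = 0.0338) and no other call of the 9 genes changed. Where a cause is not given here, it was not tested. Depth limits CFB, C1S and SERPING1, which had 2 to 80 reads per library.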
